A study of Homo sapiens with 16 samples.

Results

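DHRS2, SAT1, CLU and GSN are 4 genes that histone deacetylase (HDAC) inhibitors are known to raise in many cell types, and they were followed here in melanoma cells that received corin. They were taken by symbol from the 34228 genes of the deposited table, and they were selected on their reputed rise with this class of drug, with the corin response of these libraries already known. The values of corin against DMSO are therefore given for these 4 genes as a description, with no test. The study used 2 melanoma lines called 451Lu-R and 1205Lu-R, which are derivatives of 451Lu and 1205Lu with resistance to inhibitors of the kinase BRAF (BRAFi). PolyA RNA was sequenced from cells that had received 2.5 μM corin or its vehicle DMSO for 24 h, with 2 libraries in each of the 4 groups. The resistant lines are maintained in PLX4032, a BRAFi, but it was not among the treatments of these 8 libraries. Whether a group's replicates came from different cultures is not given in the sources used here, so the FDR values measure the spread between these libraries only.

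HDACs remove acetyl groups from histone tails, and their inhibition leaves acetylation in place at promoters and enhancers. Corin joins an HDAC inhibitor and an inhibitor of the histone demethylase LSD1 in 1 molecule, and it acts on the CoREST complex, which holds both enzymes. DHRS2 (also called HEP27) is a short-chain dehydrogenase/reductase. SAT1 acetylates spermidine and spermine, the rate-limiting step in the breakdown of polyamines. CLU (clusterin) is a chaperone that cells secrete and that also occurs inside them. GSN (gelsolin) severs and caps actin filaments and is a long-known example of a gene raised by the HDAC inhibitor trichostatin A.

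The libraries held between 9516687 and 11797788 estimated counts, and levels are given as CPM, counts scaled to the library total after TMM normalization. CPM was not divided by gene length, so levels are compared between groups within a gene and not between genes. Replicate libraries differed by little more than counting error, with a chi-square over its degrees of freedom between 1.339 and 1.408 (1 for counting error alone). The summed level of 7 melanocyte lineage markers was 13307.8 and 13319.7 CPM in 451Lu-R with DMSO and 8.64 and 8.96 CPM in 1205Lu-R with DMSO, and with corin it was 12046.8 and 12072.6 CPM in 451Lu-R and 22.1 and 25.2 CPM in 1205Lu-R. Of these markers in 1205Lu-R, SOX10 and TYR had no count in any library, while MITF was at 6.58 and 8.39 CPM with DMSO and at 14.4 and 15.8 CPM with corin, and S100B was at 0.189 and 1.08 CPM with DMSO and at 6.2 and 7.15 CPM with corin. The summed level of 4 markers of the undifferentiated melanoma state was 4.83 and 5.12 CPM in 451Lu-R with DMSO and 4672.2 and 4743.3 CPM in 1205Lu-R with DMSO, and it reached 406.0 and 416.2 CPM and 13693.4 and 13833.1 CPM with corin. Of the markers of other cell types, the 3 of keratinocytes summed to at most 5.6 CPM, the 2 of leukocytes to at most 1.66 CPM and the 3 of endothelium to at most 26.5 CPM in any library, while the 4 of fibroblasts summed to between 45.3 and 153.9 CPM. The part of these markers in the results was not tested, and in bulk RNA a larger number of expressing cells cannot be told apart from more RNA per cell.

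The sequence before the first RefSeq start is shown for the genes that have one, as context for the values. Of the 4 genes, 3 matched an entry in the RefSeq promoter table (build GRCh38.p14). GSN has further starts there, and the canonical DHRS2 transcript of GENCODE 44 has another start; these are not described here and can hold other motifs, so nothing about the gene as a whole is read from these windows. The first start of GSN lies before the start of the gene in GENCODE 44. Each line gives the 250 bases directly before a start site, 5′ to 3′ on the forward strand, on which these genes lie. Capitals mark the TATA box (searched as TATAAA), the CCAAT box and the GC box (searched as GGGCGG). Both strands were searched, and capitals that read otherwise are matches on the reverse strand.
DHRS2 first start, chr14:23629865-23630114: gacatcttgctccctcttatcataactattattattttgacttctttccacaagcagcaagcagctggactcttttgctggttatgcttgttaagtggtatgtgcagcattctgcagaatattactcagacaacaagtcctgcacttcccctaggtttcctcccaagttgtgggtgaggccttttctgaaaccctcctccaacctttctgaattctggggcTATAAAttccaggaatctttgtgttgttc
SAT1, chrX:23782923-23783172: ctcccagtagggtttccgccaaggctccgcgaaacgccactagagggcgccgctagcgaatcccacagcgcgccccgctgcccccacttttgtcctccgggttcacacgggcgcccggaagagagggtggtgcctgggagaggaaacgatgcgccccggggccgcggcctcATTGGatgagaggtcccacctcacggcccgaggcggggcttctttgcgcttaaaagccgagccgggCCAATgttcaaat
GSN first start, chr9:121201233-121201482: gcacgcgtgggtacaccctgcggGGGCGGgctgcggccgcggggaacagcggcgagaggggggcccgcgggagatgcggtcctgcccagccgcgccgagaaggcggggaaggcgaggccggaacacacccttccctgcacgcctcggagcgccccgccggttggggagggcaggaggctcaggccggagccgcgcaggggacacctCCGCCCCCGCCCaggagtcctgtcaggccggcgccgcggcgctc

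The window of the first DHRS2 start had 43.2% G and C, no CpG, and a TATA box whose bases lay 29 to 24 before the start. The SAT1 window had 66.4% G and C, 25 CpG and 2 CCAAT boxes. The window of the first GSN start had 78.8% G and C, 33 CpG and 3 GC boxes. Over all windows the medians were 58.0% and 11 CpG, TATAAA was in 10.7%, a CCAAT box in 32% and GGGCGG in 42.6%. Also searched were TGANTCA (an AP-1 site, in 6.6% of windows), CACCTG (an E-box, in 17.5%) and TGACGTCA (a CRE, in 1.6%), and none of these was in the 3 windows printed. Which start these cells used was not measured.

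**Figure D1:**
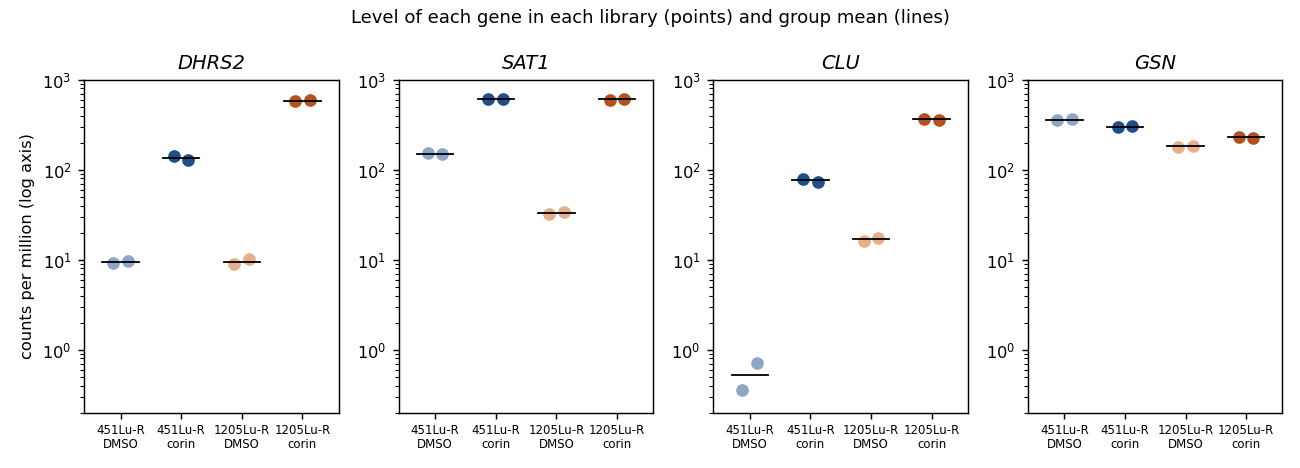
Level of DHRS2, SAT1, CLU and GSN in each of the 8 libraries, in CPM on a log axis shared by the panels; points are the 2 libraries of a group and lines the group means. DHRS2 sits at 9.48 and 9.54 CPM with DMSO in the 2 lines and separates with corin, SAT1 separates with DMSO and meets at 608.7 and 610.4 CPM with corin, CLU starts at 0.53 CPM in 451Lu-R, and GSN stays between 179.9 and 365.5 CPM.

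DHRS2 (ENSG00000100867.14, chr14:23630115-23645639, forward strand, GENCODE 44) was at 9.21 and 9.74 CPM in 451Lu-R with DMSO and at 140.4 and 128.5 CPM with corin. In 1205Lu-R it was at 8.96 and 10.1 CPM with DMSO and at 573.5 and 591.1 CPM with corin. Both corin libraries of each line lay far above every DMSO library, and the DMSO libraries of the lines overlapped. The log2 difference of corin and DMSO was 3.85 (SE 0.078, 14.4-fold) in 451Lu-R and 5.98 (SE 0.0585, 63.3-fold) in 1205Lu-R. These values placed DHRS2 at rank 932 of 14530 genes tested in 451Lu-R and at rank 307 of 14563 in 1205Lu-R, counted from the largest rise. By level the groups ran from 1205Lu-R with corin (582.3 ± 12.5 CPM, SD, n = 2) over 451Lu-R with corin (134.4 ± 8.41 CPM) to the DMSO groups, which did not differ beyond their spread (9.54 ± 0.822 CPM in 1205Lu-R and 9.48 ± 0.376 CPM in 451Lu-R). DHRS2 shared 2.891% of its 31-base words with other transcripts and none with the DHRS4 genes, its relatives on the same chromosome.

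The other short-chain dehydrogenases and reductases moved in both directions. Of 33 listed genes, 29 were tested in 451Lu-R, where 14 rose and 12 fell, and 28 were tested in 1205Lu-R, where 16 rose and 12 fell (edgeR, FDR under 0.05). Over all genes tested, 41.3% rose in 451Lu-R while 38.6% fell, and in 1205Lu-R the shares were 40.4% and 37.8%. The median log2 difference of the list was 0.09 and 0.27, beside 0.03 over all genes in both lines. DHRS4, a carbonyl reductase whose start lies 323.6 kb downstream of that of DHRS2, was at 42.1 and 41.4 CPM with DMSO and 14.4 and 16.3 CPM with corin in 451Lu-R and fell 2.69-fold (FDR 8e-12). In 1205Lu-R it fell 2.12-fold, from 14.1 and 16.1 CPM to 7.15 and 6.63 CPM (FDR 3.67e-07). In 451Lu-R, CBR1, a carbonyl reductase, rose most (2.98-fold, FDR 1.81e-17), followed by HSDL1 (1.86-fold) and RDH10, a retinol dehydrogenase (1.83-fold), while DHRS11 and DHRSX fell 3.29-fold and 2.34-fold. In 1205Lu-R, WWOX rose most (4.22-fold, FDR 2.96e-10), followed by CBR4 (2.7-fold) and DHRS13 (2.67-fold), and DHRS1, DHRS3 and HSD17B11 fell between 2.39-fold and 2.63-fold.

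SAT1 (ENSG00000130066.16, chrX:23783173-23786210, forward strand) was at 151.7 and 148.8 CPM in 451Lu-R with DMSO and at 612.8 and 604.5 CPM with corin. In 1205Lu-R it was at 32.1 and 34.1 CPM with DMSO and at 602.6 and 618.1 CPM with corin. The 4 corin libraries lay together and above all DMSO libraries, and the DMSO libraries of the 2 lines were apart. The log2 difference of corin and DMSO was 2.04 (SE 0.0268, 4.1-fold) in 451Lu-R and 4.26 (SE 0.045, 19.1-fold) in 1205Lu-R, at ranks 1805 and 582 from the largest rise. The corin groups (610.4 ± 11 CPM in 1205Lu-R and 608.7 ± 5.86 CPM in 451Lu-R, SD, n = 2) came first and overlapped, followed by 451Lu-R with DMSO (150.2 ± 2.06 CPM) and 1205Lu-R with DMSO (33.1 ± 1.37 CPM). SAT1 shared 2.325% of its 31-base words with other transcripts, all with 1 unnamed protein-coding gene that overlaps it.

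Genes of polyamine metabolism moved in both directions. Of 26 listed genes, 21 were tested in each line, where 451Lu-R had 13 that rose and 7 that fell and 1205Lu-R had 11 and 9, with a median log2 difference of 0.48 and 0.24. The shares over all genes tested were 41.3% up and 38.6% down in 451Lu-R, and 40.4% up and 37.8% down in 1205Lu-R. ODC1, the enzyme that makes putrescine and the first step of the pathway, rose 3.2-fold in 451Lu-R, from 230.6 and 225.9 CPM to 721.6 and 720.3 CPM (FDR 9.91e-22). In 1205Lu-R it rose 4.35-fold, from 217.3 and 215.6 CPM to 911.3 and 907.8 CPM (FDR 6.21e-24). AZIN2, which counters the antizyme that inhibits ODC1, rose 3.71-fold and 4.89-fold, and the oxidase PAOX, which acts on the acetylated products of SAT1, rose 3.25-fold in 451Lu-R at a level of at most 3.49 CPM. SRM, which makes spermidine, fell 3.32-fold in 451Lu-R (FDR 4.7e-20) and 2.25-fold in 1205Lu-R (FDR 1.31e-16). EIF5A, the translation factor that carries a spermidine-derived residue, fell 2.81-fold and 1.89-fold, and DHPS, which attaches that residue, fell 1.58-fold in 1205Lu-R. SLC18B1, a vesicular polyamine transporter, fell 2.14-fold in 451Lu-R and rose in 1205Lu-R from 0.66 and 0.196 CPM to 3.73 and 2.41 CPM (FDR 1.2e-05).

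CLU (ENSG00000120885.22, chr8:27596917-27614700, reverse strand) was nearly silent in 451Lu-R with DMSO, at 0.358 and 0.703 CPM from 4 and 7 counts, and was at 79.3 and 73.0 CPM with corin. In 1205Lu-R it was at 16.2 and 17.5 CPM with DMSO and at 366.3 and 357.1 CPM with corin. None of the 4 groups overlapped. The log2 difference of corin and DMSO was 7.18 (SE 0.16) in 451Lu-R and 4.47 (SE 0.052, 22.2-fold) in 1205Lu-R, at ranks 304 and 527 from the largest rise. Because the 451Lu-R DMSO libraries held 11 counts together, the ratio of summed counts, scaled to the library totals, was 146.9 there with an exact 95% interval from 81.9 to 294.8, which covers counting error only. The order was 1205Lu-R with corin (361.7 ± 6.52 CPM, SD, n = 2), 451Lu-R with corin (76.2 ± 4.47 CPM), 1205Lu-R with DMSO (16.8 ± 0.899 CPM) and 451Lu-R with DMSO (0.53 ± 0.244 CPM). CLU shared 3.449% of its 31-base words with other transcripts.

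Genes listed around clusterin showed no common direction. They were lipoprotein receptors, apolipoproteins, A2M, small chaperones, complement components and regulators, and the BAX and XRCC6 proteins it binds. Of 28 listed genes, 18 were tested in 451Lu-R, where 10 rose and 6 fell, and 15 in 1205Lu-R, where 7 rose and 7 fell, with a median log2 difference of 0.28 and 0.14. For comparison, 41.3% of the whole tested set rose while 38.6% fell for 451Lu-R, against 40.4% with 37.8% for 1205Lu-R. The median over that set was 0.03 for each line. LRP2 (megalin), a receptor for clusterin, had no count with DMSO in 1205Lu-R and was at 5.54 and 5.6 CPM with corin. That level was at least 38.6-fold higher, against a floor of 3 counts over the group. Complement C3 rose in 451Lu-R from 0.537 and 0.502 CPM, on 6 and 5 counts, to 4.99 and 5.23 CPM. In 1205Lu-R C3 rose 6.45-fold, from 2.17 and 1.67 CPM to 10.2 and 13.7 CPM. Among the small heat shock proteins, HSPB8 fell 2.09-fold in 451Lu-R (FDR 2.47e-10) and rose in 1205Lu-R from 0.0943 and 0.295 CPM to 3.83 and 5.17 CPM (FDR 1.52e-08), CRYAB rose 3.13-fold in 451Lu-R, and HSPB1 fell 2.17-fold in 1205Lu-R (FDR 2.02e-19). BAX, a pore-forming protein of apoptosis, fell 1.61-fold in 451Lu-R and 2.21-fold in 1205Lu-R. VLDLR fell 1.46-fold in 451Lu-R and XRCC6, the Ku70 subunit, fell 1.71-fold in 1205Lu-R.

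GSN (ENSG00000148180.19, chr9:121207794-121332843, forward strand) went against its label in 451Lu-R. It was at 352.7 and 365.5 CPM with DMSO and at 295.8 and 306.7 CPM with corin there, so that both corin libraries lay below both DMSO libraries. In 1205Lu-R it was at 179.9 and 183.1 CPM with DMSO and at 230.4 and 225.8 CPM with corin, with both corin libraries above. The log2 difference of corin and DMSO was -0.24 (SE 0.0291) in 451Lu-R and 0.38 (SE 0.0336, 1.3-fold) in 1205Lu-R, at ranks 8903 of 14530 and 5408 of 14563. The order was 451Lu-R with DMSO (359.1 ± 9.07 CPM, SD, n = 2), 451Lu-R with corin (301.3 ± 7.71 CPM), 1205Lu-R with corin (228.1 ± 3.24 CPM) and 1205Lu-R with DMSO (181.5 ± 2.29 CPM), with no overlap between neighbours. GSN overlaps RAB14 and GSN-AS1 on the opposite strand and shared 3.781% of its 31-base words with other transcripts. Whether the counting used strand is not given in the sources used here, so reads of these genes may not be fully apart. RAB14, whose start lies 15.2 kb downstream, fell 1.37-fold in 451Lu-R (FDR 2.59e-08) and 1.94-fold in 1205Lu-R (FDR 2.97e-15).

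Genes that cap, sever or bind actin moved in both directions. Of 27 listed genes, 23 were tested in 451Lu-R, where 12 rose and 10 fell, and 22 in 1205Lu-R, where 4 rose and 13 fell, with a median log2 difference of 0.08 and -0.27. Of all genes tested, the share that rose was 41.3% in the first line and 40.4% in the other, and 38.6% and 37.8% fell. TMOD1, which caps the slow-growing end of actin filaments, rose in both lines, from 4.65 and 5.22 CPM to 22.5 and 23.0 CPM in 451Lu-R (4.67-fold, FDR 5.32e-12) and from 0.943 and 0.884 CPM to 6.85 and 10.4 CPM in 1205Lu-R (9.78-fold, FDR 1.36e-09). In 451Lu-R, TMSB15A and TMSB4X, which bind actin monomers, rose 4.16-fold and 2.75-fold, and in 1205Lu-R, TMOD2 rose 3.69-fold and the capping subunit CAPZA2 rose 1.14-fold. CAPZA1, also a capping subunit, fell 2.09-fold in 451Lu-R and 2.27-fold in 1205Lu-R. The gelsolin family members SVIL and FLII fell 2.15-fold and 2.11-fold in 1205Lu-R (FDR 9.35e-16 and 2.84e-16), and CAP2 and PFN1 fell 1.77-fold and 1.76-fold in 451Lu-R.

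Of the 4 genes, 3 had a difference of 4-fold or more in each line, and GSN had it in neither. Over all genes tested, 12.4% rose 4-fold or more at an FDR under 0.001 in 451Lu-R and 11.3% in 1205Lu-R. Since the genes were chosen by their response to this class of drug, nothing is read from that count.

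**Figure D2:**
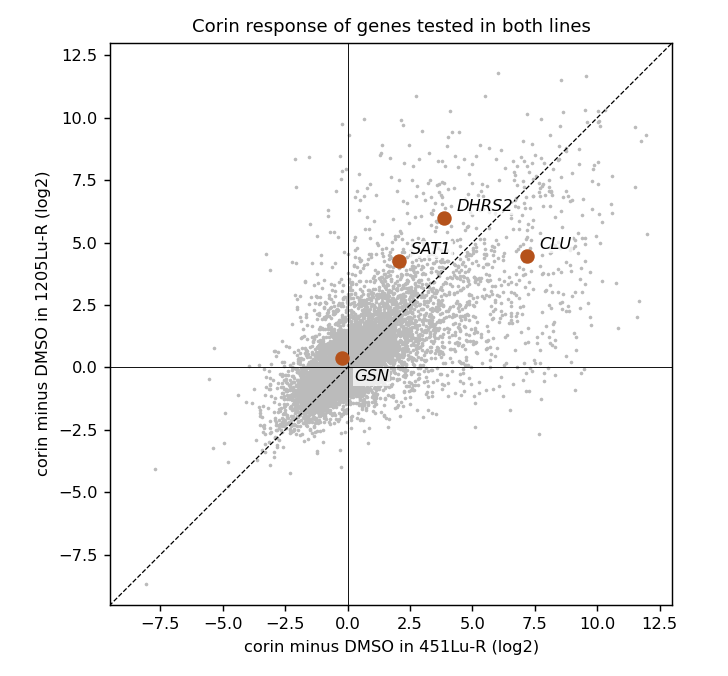
Log2 difference of corin and DMSO in 451Lu-R (horizontal) and 1205Lu-R (vertical) for the 13200 genes tested in both lines (grey), with the 4 genes in orange and the line of equal response dashed. DHRS2 and SAT1 lie above the dashed line, CLU lies below it at 7.18 and 4.47, and GSN lies close to the origin at -0.24 and 0.38.

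The levels of the 2 cell lines were then compared under the same treatment, in libraries whose values were known when the genes were chosen, although the choice was not by a difference between the lines (edgeR, 2-sided quasi-likelihood test, FDR over all genes). With DMSO, 3 of the 4 genes differed at an FDR under 0.05, where 82.5% of 14104 genes did. SAT1 was 4.52-fold lower in 1205Lu-R than in 451Lu-R (log2 difference -2.18, SE 0.0539, FDR 6.64e-22), GSN was 1.97-fold lower (-0.98, SE 0.0321, FDR 2.57e-19), and CLU was 31.8-fold higher (4.99, SE 0.26, FDR 3.21e-15) on the 11 counts of 451Lu-R. For DHRS2 the log2 difference was 0.01 (95% interval -0.29 to 0.31, FDR 0.933), an interval within which the lines may still differ.

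With corin, 3 of the 4 genes again differed between the lines, where 79.2% of 15363 genes did. DHRS2 was 4.36-fold higher in 1205Lu-R (log2 difference 2.13, SE 0.0357, FDR 1.52e-19), CLU was 4.78-fold higher (2.26, SE 0.0383, FDR 1.8e-19), and GSN was 1.31-fold lower (-0.39, SE 0.0318, FDR 2.71e-09). For SAT1 the log2 difference was 0.02 (95% interval -0.03 to 0.06, FDR 0.484). With scaling by library size only it was 0.11 (FDR 0.000572), a scaling that moved the median of all genes by 0.09.

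**Figure D3:**
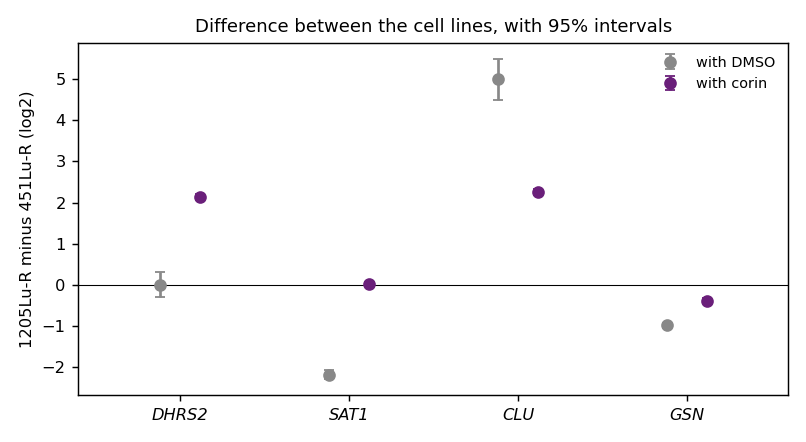
Log2 difference between the cell lines (1205Lu-R minus 451Lu-R) of the 4 genes with DMSO (grey) and with corin (purple); points are the edgeR estimates and bars 95% intervals, some of which are smaller than the points. DHRS2 moves from 0.01 to 2.13, SAT1 from -2.18 to 0.02, CLU from 4.99 to 2.26 and GSN from -0.98 to -0.39.

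The response to corin differed between the lines for all 4 genes, tested with an interaction term on the same 8 libraries whose responses were known when the genes were chosen. Of 16062 genes, 49.7% passed the same threshold. The rise of DHRS2 was 4.27-fold larger in 1205Lu-R (log2 2.10, SE 0.17, FDR 8.73e-10), and that of SAT1 was 4.53-fold larger (2.18, SE 0.065, FDR 5.99e-17). The rise of CLU was 6.72-fold smaller in 1205Lu-R (-2.75, SE 0.31, FDR 2.01e-07), although its level with corin was higher there. For GSN the difference was 0.58 (SE 0.048, FDR 1.57e-09), between responses of opposite sign.

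Lists of other genes known from HDAC inhibitors were used to set the 4 genes beside their class. The lists were written with earlier results of these data known, so their counts are a description. Of 39 genes known to rise, 25 were tested in 451Lu-R, where 23 rose and 1 fell, and 28 in 1205Lu-R, where 25 rose and 3 fell. Among every gene tested, rises made up 41.3% for 451Lu-R against 40.4% for 1205Lu-R, with falls at 38.6% against 37.8%. Large rises (4-fold or more, FDR under 0.001) made up 12.4% against 11.3%, and the median log2 difference was 0.03 for each line. Within the list the median was 2.25 and 1.81, and 15 and 13 of its genes rose 4-fold or more. CDKN1A, the cell cycle inhibitor p21 and the best known of these genes, rose from 2.5 and 2.91 CPM to 294.0 and 290.3 CPM in 451Lu-R (FDR 1.92e-23). KLF4, a transcription factor, rose there from 0.805 and 0.201 CPM to 18.9 and 18.0 CPM, and SLC5A5, the iodide transporter, rose from 0.0894 and 0.402 CPM to 6.65 and 7.38 CPM. The DMSO levels of these genes rest on 9 and 2 counts (KLF4) and 1 and 4 counts (SLC5A5), so no fold is given. In 1205Lu-R the largest rises were those of CITED2, a transcription cofactor (17.0-fold, FDR 2.15e-22), IGFBP3, which binds insulin-like growth factors (11.8-fold), and the nuclear receptor NR4A1 (9.0-fold). The genes of this list that fell were STMN3 in both lines (1.09-fold and 1.47-fold) and KLF2 and KLF6 in 1205Lu-R (1.9-fold and 1.52-fold). The fall of STMN3 in 451Lu-R (FDR 0.0127) was lost with DESeq2 and without 451Lu-R corin replicate 1 (0 falls in place of 1).

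Of 15 genes known to fall with HDAC inhibitors, 14 were tested in 451Lu-R, where 12 fell and 2 rose, and 15 in 1205Lu-R, where 13 fell and 2 rose, with a median log2 difference of -1.66 and -0.48. Falls were 38.6% and 37.8% of all genes tested in 451Lu-R and 1205Lu-R, and rises were 41.3% and 40.4%. MYC fell 6.46-fold in 451Lu-R, from 244.3 and 243.3 CPM to 35.6 and 39.2 CPM, and the mitotic genes CCNB1 and AURKA fell 4.49-fold and 4.35-fold. In 1205Lu-R the DNA repair gene BRCA1 fell 4.47-fold, and the deacetylase gene HDAC7 fell 4.51-fold. CCND1 (cyclin D1), listed as a gene that falls, rose 4.03-fold in 451Lu-R, from 333.0 and 315.5 CPM to 1291.8 and 1291.1 CPM. TXN rose 1.3-fold in 451Lu-R and 1.05-fold in 1205Lu-R, and TERT rose 1.77-fold in 1205Lu-R at a level of at most 3.02 CPM. The calls of TXN and TERT in 1205Lu-R did not both hold when any 1 library was left out (0 or 1 rise in place of 2).

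**Figure D4:**
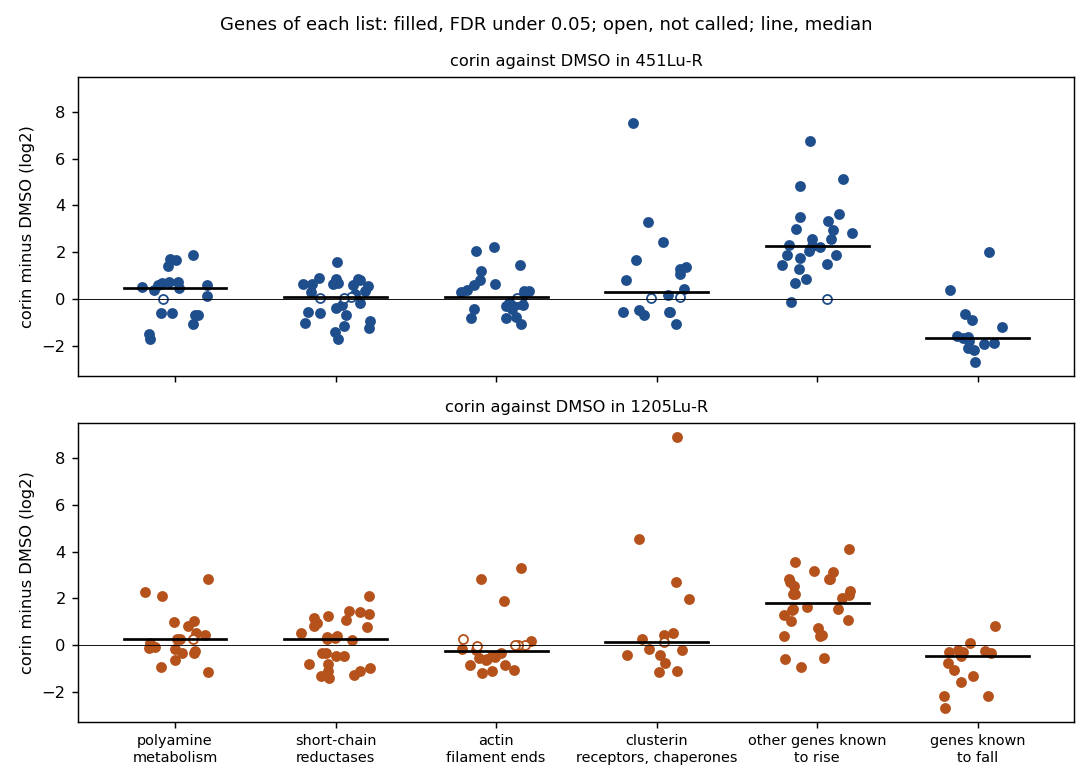
Log2 difference of corin and DMSO for each tested gene of the 6 lists, with 451Lu-R in the top panel and 1205Lu-R in the lower one; filled points passed an FDR under 0.05, open points did not, and black lines are the medians of the lists. The 4 genes themselves are in none of the lists. The list of other genes known to rise has medians of 2.25 and 1.81, and the 4 lists built around the single genes have medians between -0.27 and 0.48. The height of points for genes with no count with DMSO depends on the prior count.

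The genes next to each of the 4 on its chromosome were taken as the nearest tested protein-coding gene on each side. Upstream of DHRS2, AP1G2, a clathrin adaptor subunit with its start 62.0 kb away, fell 1.38-fold in 451Lu-R (FDR 0.00263) and rose 1.77-fold in 1205Lu-R (FDR 2.26e-05). Next to SAT1, ACOT9, a mitochondrial thioesterase 16.7 kb away, rose 1.43-fold in 451Lu-R and fell 1.18-fold in 1205Lu-R, and APOO, 124.8 kb away, fell 1.63-fold in 451Lu-R (FDR 1.37e-08) and had a log2 difference of -0.09 in 1205Lu-R (FDR 0.516). Next to CLU, ESCO2, a cohesin acetyltransferase, fell 1.34-fold in 451Lu-R and had a log2 difference of -0.16 in 1205Lu-R (FDR 0.0993), and the kinase gene PTK2B rose 1.57-fold in 451Lu-R. In 1205Lu-R PTK2B rose from 0.66 and 0.491 CPM to 2.22 and 1.72 CPM. Upstream of GSN, C5 had log2 differences of -0.22 (FDR 0.548) and 0.19 (FDR 0.42).

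Within 500 kb of DHRS2, 14 protein-coding genes were tested in both lines. Of these, 451Lu-R had 3 rises and 11 falls, and 1205Lu-R had 4 rises and 8 falls. Among all genes tested the share of rises was 41.3% in the first line and 40.4% in the second, that of falls was 38.6% and 37.8%, and nothing particular to the neighbourhoods is read from them. The 7 genes around SAT1 had 4 rises and 3 falls in 451Lu-R, against 3 of each in 1205Lu-R. Of the 7 around CLU, 3 rose and as many fell in 451Lu-R, while in 1205Lu-R 5 rose against 1 that fell. Of the 11 around GSN, 5 fell against 4 that rose in 451Lu-R, and 4 fell against 1 that rose in 1205Lu-R. Genes that rose 4-fold or more at an FDR under 0.001 were 1 near DHRS2 in 451Lu-R (2 in 1205Lu-R), 1 near SAT1 (0 in 1205Lu-R), 1 near CLU in either line and 0 near GSN in either line, where 12.4% and 11.3% of all genes tested did so in 451Lu-R and 1205Lu-R.

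**Figure D5:**
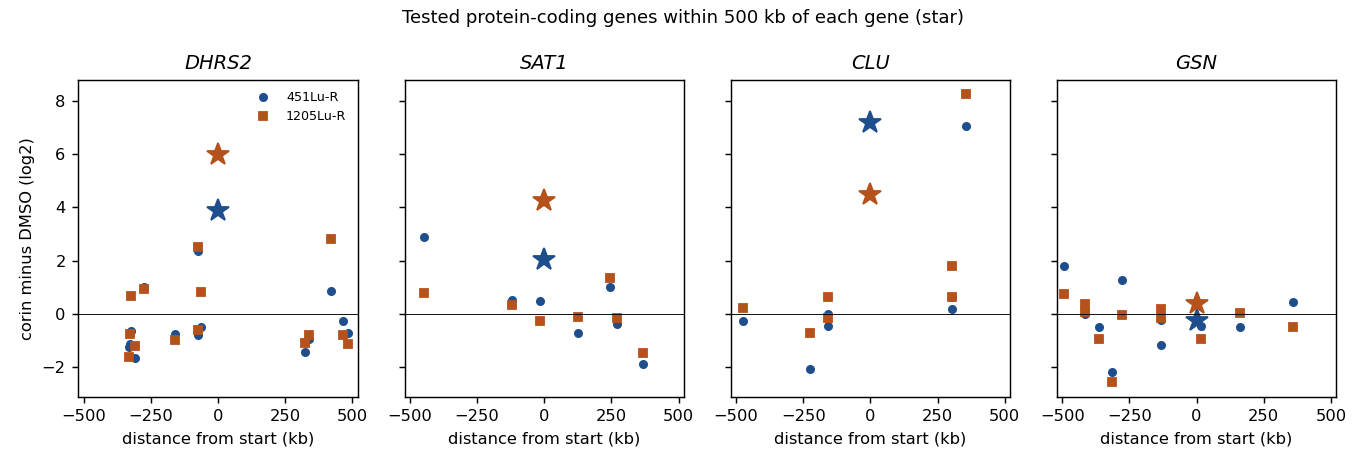
Log2 difference of corin and DMSO in 451Lu-R (blue circles) and 1205Lu-R (orange squares) for protein-coding genes within 500 kb, against the distance of their start from that of DHRS2, SAT1, CLU or GSN (stars at 0), with downstream to the right. DHRS2 and SAT1 in 1205Lu-R, at 5.98 and 4.26, stand above every gene around them. In 451Lu-R this holds for DHRS2 at 3.85, while SAT1 at 2.04 lies below PTCHD1 at 2.88. Since the 4 genes were chosen for a known rise, nothing is read from their height. The highest points near CLU are 1 gene with no count with DMSO, whose fitted value depends on the prior count and is no measured size.

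The genes whose profile over the 8 libraries was most like that of each of the 4 were named by the smallest root mean square (RMS) difference of centred log2(CPM + 1) among 14568 genes. The libraries share their groups and normalization, so these values describe the profiles and carry no test. Nearest to DHRS2 were RFPL4A (RMS 0.24), CYP1A1, an aryl hydrocarbon receptor target (0.38), and TMEFF2 (0.42). RFPL4A had no count in any DMSO library and averaged 8.75 CPM in 451Lu-R and 37.5 CPM in 1205Lu-R with corin. CYP1A1 went from 0.29 to 23.0 CPM in 451Lu-R and from 0.191 to 50.4 CPM in 1205Lu-R. The 1 CPM added before the log flattens changes from levels near 0, so a close profile does not mean an equal fold. Nearest to SAT1 were SEMA3C, a secreted semaphorin (0.14), ELOVL7, a fatty acid elongase (0.19), and CITED2 (0.31). SEMA3C went from 51.3 to 176.4 CPM in 451Lu-R and from 11.5 to 216.7 CPM in 1205Lu-R. Near CLU were ARC, an immediate early gene of neurons (0.77), and AMPH (0.81), which were less close. Nearest to GSN were EIF4G3, a translation initiation factor (0.0556), MED11, a Mediator subunit (0.0584), and PIGP (0.0662). Among the 4 genes themselves, the RMS difference was smallest between DHRS2 and CLU (1.26) and largest between CLU and GSN (3.10).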

How the data were processed

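The authors trimmed the reads (Trimmomatic), quantified them with Salmon against GENCODE 32 and deposited estimated counts (expected counts) per gene for 8 libraries, without normalization. Tool versions are not given in the sources used here. The tables of the 8 PLX4032 libraries list only comparisons made by the authors (fold changes with adjusted p-values) and were not used. Here, counts were rounded, and 34052 of 34228 gene IDs were matched to names in GENCODE 44. Groups were compared with edgeR 4.0.16 in R 4.3.3 (filterByExpr, TMM, glmQLFit and glmQLFTest, 2-sided, Benjamini-Hochberg adjustment over all genes tested). The FDR limit was 0.05, and 0.001 for changes of 4-fold or more. TMM factors ran from 0.9586 to 1.0446. The library totals leave genes under 1 CPM with few counts, and replicates with little spread give small FDR values.

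The 4 genes, the 6 lists and the tests were chosen with earlier results of these data known. The text names the 4 genes, at most 3 genes per list, cell line and direction (FDR under 0.05, mean of at least 1 CPM, groups not overlapping), the nearest tested protein-coding gene on each side, and the 3 genes with the most similar profile among genes with at least 10 counts on average. Other genes are said to be chosen after their values were seen. Libraries that share a number did not deviate together (r between -0.021 and 0.055), and they were treated as unpaired. Since replicates differed by little more than counting error, these values cannot exclude a pairing. Alternatives were DESeq2 1.42.0, a replicate block, RLE size factors, scaling by library size only, 1 fit of all 8 libraries, leaving out each library, and other filters (none, or a mean of 1 CPM). The fits were tested on simulated data. Some items that the naming rule selects are not reported here.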

Additional observations from a re-analysis of the deposited data

Results flagged for a closer look

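For each of the 4 genes the response to corin differed between the cell lines, by an interaction term in edgeR on the 8 libraries. The same call (FDR under 0.05) was made for 49.7% of 16062 genes. These responses were known when the 4 genes were chosen, and that of CLU in 451Lu-R rests on 11 counts with DMSO. The difference (1205Lu-R minus 451Lu-R, log2) was 2.10 for DHRS2 (SE 0.168, FDR 8.73e-10), 2.18 for SAT1 (SE 0.065, FDR 5.99e-17), -2.75 for CLU (SE 0.314, FDR 2.01e-07) and 0.58 for GSN (SE 0.048, FDR 1.57e-09). Over 14 alternatives it ran from 2.0 to 2.31, from 2.13 to 2.39, from -3.28 to -2.33 and from 0.54 to 0.79. Groups of 2 libraries were not examined for outlying samples.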

How the results depend on the processing

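Of 598 alternative values over 53 results, 567 were labelled as unchanged. For a count of genes, this label asked only that the count stay within a fixed ratio of the main count. The 1266 rises of 4-fold or more in 1205Lu-R with DESeq2, beside 1650, were thus labelled as unchanged. For the 4 genes, it asked that corin against DMSO stay within the replicate spread, and that the other comparisons keep direction and call. The difference of DHRS2 between the lines with DMSO, 0.01 on the log2 scale, was -0.09 with library size only and from -0.06 to 0.11 with each library left out, and it was called in none (FDR from 0.582 to 0.978). The difference of SAT1 between the lines with corin, 0.02, was called with library size only (0.11, FDR 0.000572) and with no other alternative. Library size only moved the median of all genes by -0.10 and 0.07 for corin in 451Lu-R and 1205Lu-R, by -0.11 and 0.09 between the lines, and by 0.21 in the interaction. With it, the log2 differences of corin and DMSO were 3.75 (DHRS2), 1.94 (SAT1) and -0.33 (GSN) in 451Lu-R and 4.33 (SAT1), 4.55 (CLU) and 0.45 (GSN) in 1205Lu-R, 5 polyamine genes fell in 1205Lu-R in place of 9, and 2 genes known to rise fell in 451Lu-R in place of 1. SAT1 in 451Lu-R was 2.02 without a filter and 2.06 in 1 fit of all libraries, and GSN in 1205Lu-R was 0.35 with DESeq2 and 0.33 without a filter. With each library left out, CLU in 451Lu-R ran from 6.74 to 7.71 and GSN from -0.27 to -0.20, and in 1205Lu-R DHRS2 ran from 5.88 to 6.05, SAT1 from 4.20 to 4.28, CLU from 4.40 to 4.51 and GSN from 0.35 to 0.39. Genes known to rise that fell in 451Lu-R were 0 with DESeq2 and 0 to 1 with a library left out. Genes known to fall that rose in 1205Lu-R were 0 with DESeq2 and in 1 fit of all libraries, 1 without a filter, and 0 to 1 with a library left out. The cause was not tested. The replicate block changed no call of the 4 genes (SAT1 between the lines with corin 0.02, FDR 0.501; DHRS2 with DMSO 0.01, FDR 0.943) and gave 1754 rises of 4-fold or more in 451Lu-R and 1655 in 1205Lu-R. CLU in 451Lu-R rests on 11 counts with DMSO. A lone library left in a group was taken to vary like the others.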

Other observations

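Some genes close to the 4 were large in their own response and are named here after their values were seen. STMN4, a stathmin family gene with its start 356.3 kb downstream of that of CLU, had no count in any DMSO library and was at 1.66 and 1.44 CPM in 451Lu-R and at 3.12 and 3.88 CPM in 1205Lu-R with corin (FDR 4.98e-06 and 1.64e-08). ZFHX2, 73.9 kb upstream of DHRS2, was at 0.715 and 0.402 CPM with DMSO and 2.45 and 3.49 CPM with corin in 451Lu-R (log2 difference 2.37, FDR 3.32e-05), and at 1.04 and 0.786 CPM with DMSO and 5.14 and 5.08 CPM with corin in 1205Lu-R (2.52, FDR 1.69e-07). PTCHD1, 448.3 kb upstream of SAT1, gave a larger log2 difference in 451Lu-R (2.88) than in 1205Lu-R (0.81), whereas for SAT1 that in 1205Lu-R was the larger. The difference between the lines in PTCHD1 was not tested here.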
